A study of Mus musculus with 36 samples.

Results

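Histone lysine methyltransferases and demethylases add methyl groups to lysines of the histone tails and take them off again. The gene symbols that begin with Kmt or Kdm and a digit, or with Setd and a digit or b, were taken as the members, and Kdm5d was left out. This gave 37 symbols of the 50216 gene symbols listed in the count tables, and each of the 3 tables held 35 of them. Most of the set belongs to known families: the Kmt2 and Setd1 enzymes of H3K4, the Kmt5 enzymes of H4K20, the Setdb enzymes of H3K9, and the Kdm demethylases, which with the exception of the flavin enzymes Kdm1a and Kdm1b carry a JmjC domain. The H3K4 methyltransferases mark promoters and enhancers, the Kdm5 demethylases remove that mark and the Kdm6 demethylases remove methylation from H3K27. Several of these enzymes are known as regulators of the exit from pluripotency and of reprogramming. P-bodies, droplets in the cytoplasm without a membrane, gather mRNAs and repressors of translation.

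The series holds 36 RNA-seq libraries of mouse cells, in 16 groups. Sorted P-bodies and cytoplasm, 2 libraries each, were taken from embryonic stem (ES) cells in the naive and in the primed state, from mouse embryonic fibroblasts (MEFs), from such cells after 3 days of reprogramming (day 3 control), from day 3 cells with a Nudt21 knockdown, and from Ago2 KO ES cells that the labels list as naive. Polysome-bound and total RNA, 3 libraries each, were taken from control and DDX6 degron ES cells. By the study's account both were the same line with a degron on DDX6, a helicase needed for P-bodies. The degron group had been given a dTAG compound for some hours to degrade DDX6, and the control group had not. The P-bodies were sorted as particles that carried GFP-LSM14A, after a slow spin had taken out the nuclei. The cytoplasm is the fraction from before the sort, the resuspended pellet of a later and faster spin, so it still held P-bodies. A change between the fractions is thus a ratio of relative levels and does not say where most copies of an mRNA lay. The MEFs came from mice with inducible reprogramming factors, Nudt21 was targeted by a short hairpin RNA against this 3′-end processing factor, and the Ago2 KO cells went through single-cell cloning after Cas9 editing. The cells for polysomes were grown in 2i, and ribosomes were held on the mRNA by cycloheximide before lysis. In these bulk fractions a difference in the number of cells or particles and a difference in RNA per particle cannot be told apart.

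Libraries held 6769727 to 12772173 reads in genes for the ES cell fractions, 19384697 to 31185799 for the MEF and reprogramming fractions, 15624342 to 17486206 for the Ago2 KO and 13308776 to 29362187 for polysome and total RNA. The cytoplasm of the Ago2 KO stood apart, with 25% and 41.6% of reads in the 10 most abundant genes. Marker sums followed the labels. Fibroblast markers summed to 33020 to 36452 CPM (counts scaled to a common library size) in MEF cytoplasm and to no more than 73.8 CPM in naive cytoplasm, and the naive marker Esrrb had no read in MEF cytoplasm. Nudt21 was at 5.03 to 5.99 CPM in the knockdown against 88.5 to 118 CPM in the day 3 control, and Ago2 was at 2.54 to 4.83 CPM in the Ago2 KO. The Ddx6 mRNA is no check of a degron, which acts on the protein.

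A member was called higher or lower where edgeR's quasi-likelihood test, fitted over all genes, gave an adjusted p under 0.05. All levels are CPM, all changes are log2 fold changes with their standard error (SE), and adjusted p-values are those of this test. Kdm4d had 6 to 50 reads over all libraries of a comparison and was tested in 4 of the 6 P-body comparisons. Kdm4dl with 0 reads and Kdm6bos with 1 read, which were listed in the Ago2 KO table alone, were not tested. The remaining 34 members were tested in every P-body comparison for which the table held them, and Kmt5b and Kmt5c were not matched by symbol in the Ago2 KO table.

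Kmt2d, the H3K4 methyltransferase of enhancers, was lower in P-bodies than in cytoplasm in all 6 P-body comparisons, and it was the only member called lower in each of them. It lies on the minus strand at chr15:98831669-98871204 (mm10) and has a GC-rich coding sequence. Its paralogue Kmt2c, which works in the same kind of complex, lies at chr5:25271798-25498783, and Kmt2e, a relative that binds methylated H3K4 and went the other way in ES cells, at chr5:23434441-23504235. As the P-body changes of the members followed GC content in several cell types (given further on), 120 coding bases of each are shown from the GENCODE gene models of mm10, with a G or C at the last position of a codon in capitals. The 3 windows hold 24, 16 and 16 such codons of 40, close to each gene's whole coding sequence, in which G or C stands at 59.9%, 39.8% and 39.4% of last codon positions.
Kmt2d: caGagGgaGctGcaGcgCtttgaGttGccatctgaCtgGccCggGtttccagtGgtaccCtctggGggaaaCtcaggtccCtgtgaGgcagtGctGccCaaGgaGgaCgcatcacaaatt
Kmt2c: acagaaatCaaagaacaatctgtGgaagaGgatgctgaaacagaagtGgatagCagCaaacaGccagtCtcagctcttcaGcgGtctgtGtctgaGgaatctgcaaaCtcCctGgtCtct
Kmt2e: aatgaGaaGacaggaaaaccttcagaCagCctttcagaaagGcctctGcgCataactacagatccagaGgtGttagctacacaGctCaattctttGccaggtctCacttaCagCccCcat
The windows are coding bases 235 to 354 of the Kmt2d transcript ENSMUST00000023741.15, 247 to 366 of the Kmt2c transcript ENSMUST00000045291.13 and 2227 to 2346 of the Kmt2e transcript ENSMUST00000115128.7. They were chosen because their composition is close to that of the whole coding sequence.

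In naive ES cells Kmt2d was at 24.4 and 21.4 CPM in P-bodies against 56.5 and 54.4 CPM in cytoplasm, a log2 fold change of -1.28 ± 0.13 (SE, adjusted p = 0.00153). In primed ES cells it was at 26.5 and 19.9 CPM in P-bodies against 57.7 and 61.8 CPM in cytoplasm (-1.36 ± 0.13, adjusted p = 2.04e-06). In MEFs it was at 16.9 and 20.04 CPM against 45.8 and 41.4 CPM (-1.24 ± 0.13, adjusted p = 3.96e-05). Every P-body library was thus below every cytoplasm library, and the cytoplasmic level of Kmt2d lay in a narrow band over these cell types. At day 3 of reprogramming Kmt2d was at 12.5 and 17.5 CPM in P-bodies against 57.3 and 58.2 CPM in cytoplasm (-1.95 ± 0.20, adjusted p = 0.0495). With the Nudt21 knockdown it was at 11.2 and 12.1 CPM against 53.4 and 62.5 CPM (-2.31 ± 0.13, adjusted p = 2.90e-05). In the Ago2 KO it was at 3.36 and 5.47 CPM against 21.0 and 44.0 CPM, where the cytoplasm libraries lay far apart (-2.87 ± 0.41, adjusted p = 0.00476). The groups did not overlap in any of these comparisons. That also held for 73.4%, 75.2%, 78.2%, 59.8%, 62.2% and 56% of all genes tested, in the same order, so it is a weak mark by itself. Per kilobase of its longest transcript Kmt2d was among the lowest members, with 2.80 CPM per kb in naive cytoplasm (place 28) and 1.15 CPM per kb in naive P-bodies (place 30). The difference in P-body enrichment between cell types was not called for Kmt2d: it was 0.05 ± 0.20 (SE) for primed minus naive (adjusted p = 0.890), 0.23 ± 0.19 for MEF minus naive (adjusted p = 0.397), -0.67 ± 0.25 for day 3 control minus MEF (adjusted p = 0.0990) and -0.33 ± 0.24 for Nudt21 knockdown minus day 3 control (adjusted p = 0.894).

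**Figure D1:**
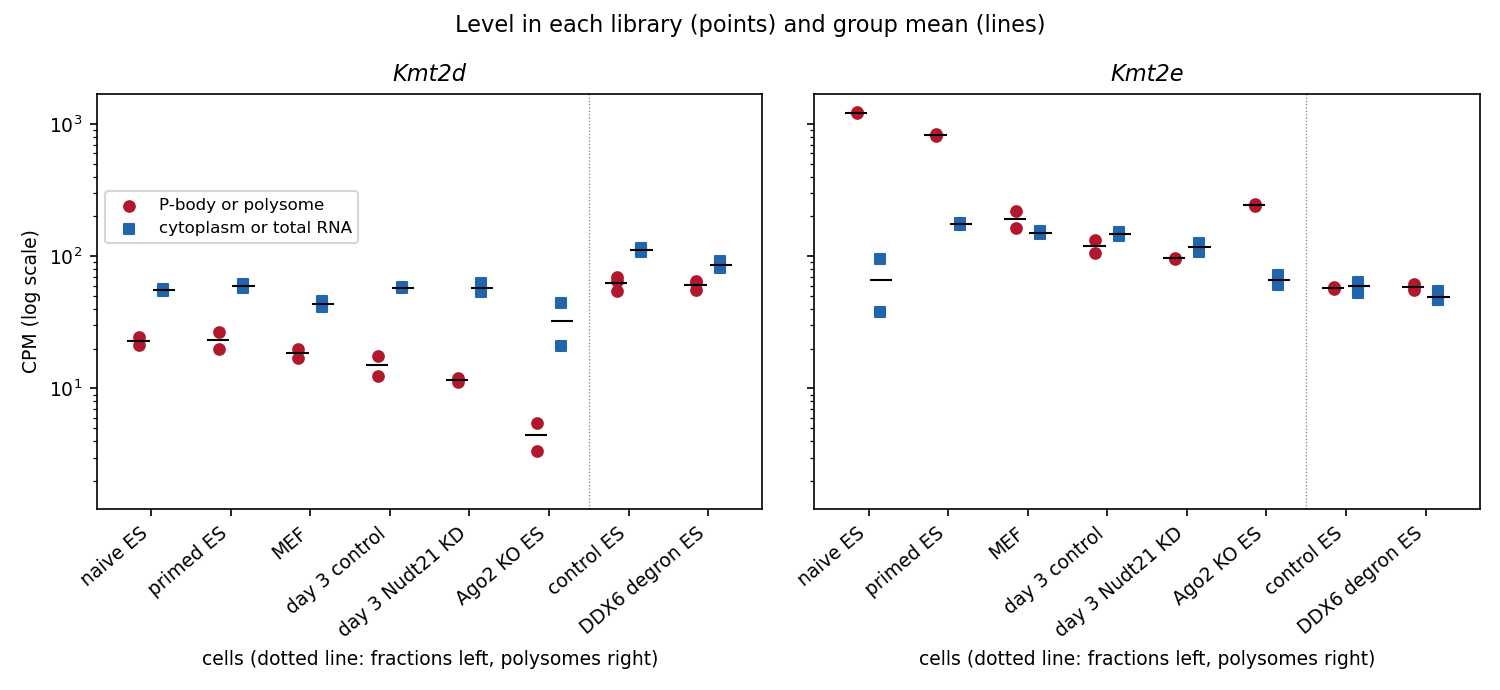
Levels of Kmt2d and Kmt2e in CPM (log axis) in each library of each fraction, one point a library, with P-bodies beside cytoplasm and polysomes beside total RNA. All Kmt2d points of P-bodies lie below those of the cytoplasm of the same cells, while Kmt2e points of P-bodies lie far above cytoplasm in naive, primed and Ago2 KO ES cells and near it in MEFs and at day 3.

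Kmt2e had the largest change of the members in naive ES cells. It was at 1205 and 1226 CPM in naive P-bodies against 37.6 and 95.0 CPM in the cytoplasm (4.20 ± 0.46, adjusted p = 0.00188). In primed ES cells it was at 849 and 819 CPM in P-bodies against 173 and 179 CPM (2.24 ± 0.05, adjusted p = 3.08e-11). In the Ago2 KO it was at 240.3 and 250.2 CPM against 60.9 and 71.6 CPM (1.89 ± 0.27, adjusted p = 0.00476). P-body and cytoplasm libraries did not overlap in these ES cells, and the naive cytoplasm libraries lay further apart than the others. Over all genes tested the share without overlap was 73.4%, 75.2% and 56% in the same order. In MEFs Kmt2e was at 164 and 219 CPM in P-bodies against 148 and 154 CPM, which was not called (0.34 ± 0.13). At day 3 it was at 133 and 106 CPM against 143 and 153 CPM in the control and at 95.0 and 97.6 CPM against 126 and 108 CPM with the knockdown, and neither was called. Per kilobase of its longest transcript Kmt2e went from place 16 of the members in naive cytoplasm (9.06 CPM per kb) to place 1 in naive P-bodies (166 CPM per kb), where Kdm1a followed with 109 CPM per kb. Srpk2 covers 9.31% of the exon bases of Kmt2e from the other strand, and the counting was not stated to use strand, so the counts of Kmt2e are uncertain. This is a share of bases, and the share of reads in the overlap was not counted.

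In naive ES cells 14 of the 34 members tested were called higher in P-bodies and 4 lower, against 22.6% higher and 15.4% lower over all genes tested. The median change of the members was 0.31, against -0.06 over all genes. The next largest changes were those of demethylases. Kdm7a, a demethylase of H3K9 and H3K27, was at 82.6 and 79.9 CPM in P-bodies against 7.46 and 16.8 CPM in cytoplasm (2.74 ± 0.36, adjusted p = 0.00358). Kdm5a, a demethylase of H3K4, was at 341 and 332 CPM against 74.4 and 82.6 CPM (2.10 ± 0.11, adjusted p = 4.14e-04). Kdm6a, the X-linked H3K27 demethylase that sits in the Kmt2c and Kmt2d complexes, was at 278 and 288 CPM against 66.5 and 76.5 CPM (1.99 ± 0.12, adjusted p = 4.24e-04). For each of these the P-body libraries were several times above the cytoplasm libraries and close to each other. By role, the H3K4 group holds 8 genes, with Kmt2e placed there by family and not as a known H3K4 methyltransferase. Of these, 3 were called higher (Kmt2a, Kmt2c and Kmt2e) and 2 lower (Kmt2b and Kmt2d), so close relatives lay on opposite sides. Kmt2c was at 178 and 167 CPM in P-bodies against 86.7 and 109.8 CPM (0.81 ± 0.14), and Kmt2b, the relative of Kmt2a that acts at promoters, at 20.6 and 20.1 CPM against 38.1 and 41.6 CPM (-0.97 ± 0.13, adjusted p = 0.00378). Of the H4K20 enzymes Kmt5a and Kmt5b were called higher and Kmt5c lower, with 108 and 118 CPM in P-bodies against 166 and 184 CPM (-0.63 ± 0.11, adjusted p = 0.00885). Kdm2b was the remaining member called lower (-0.54 ± 0.12). Without naive P-body replicate 1, and likewise without naive P-body replicate 2, 9 members were called higher and 1 lower (11.6% to 11.8% and 1.77% to 1.79% of all genes), and Kmt2b and Kmt5c were no longer called (adjusted p = 0.0703 and 0.0767 for Kmt2b, 0.165 and 0.111 for Kmt5c).

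**Figure D2:**
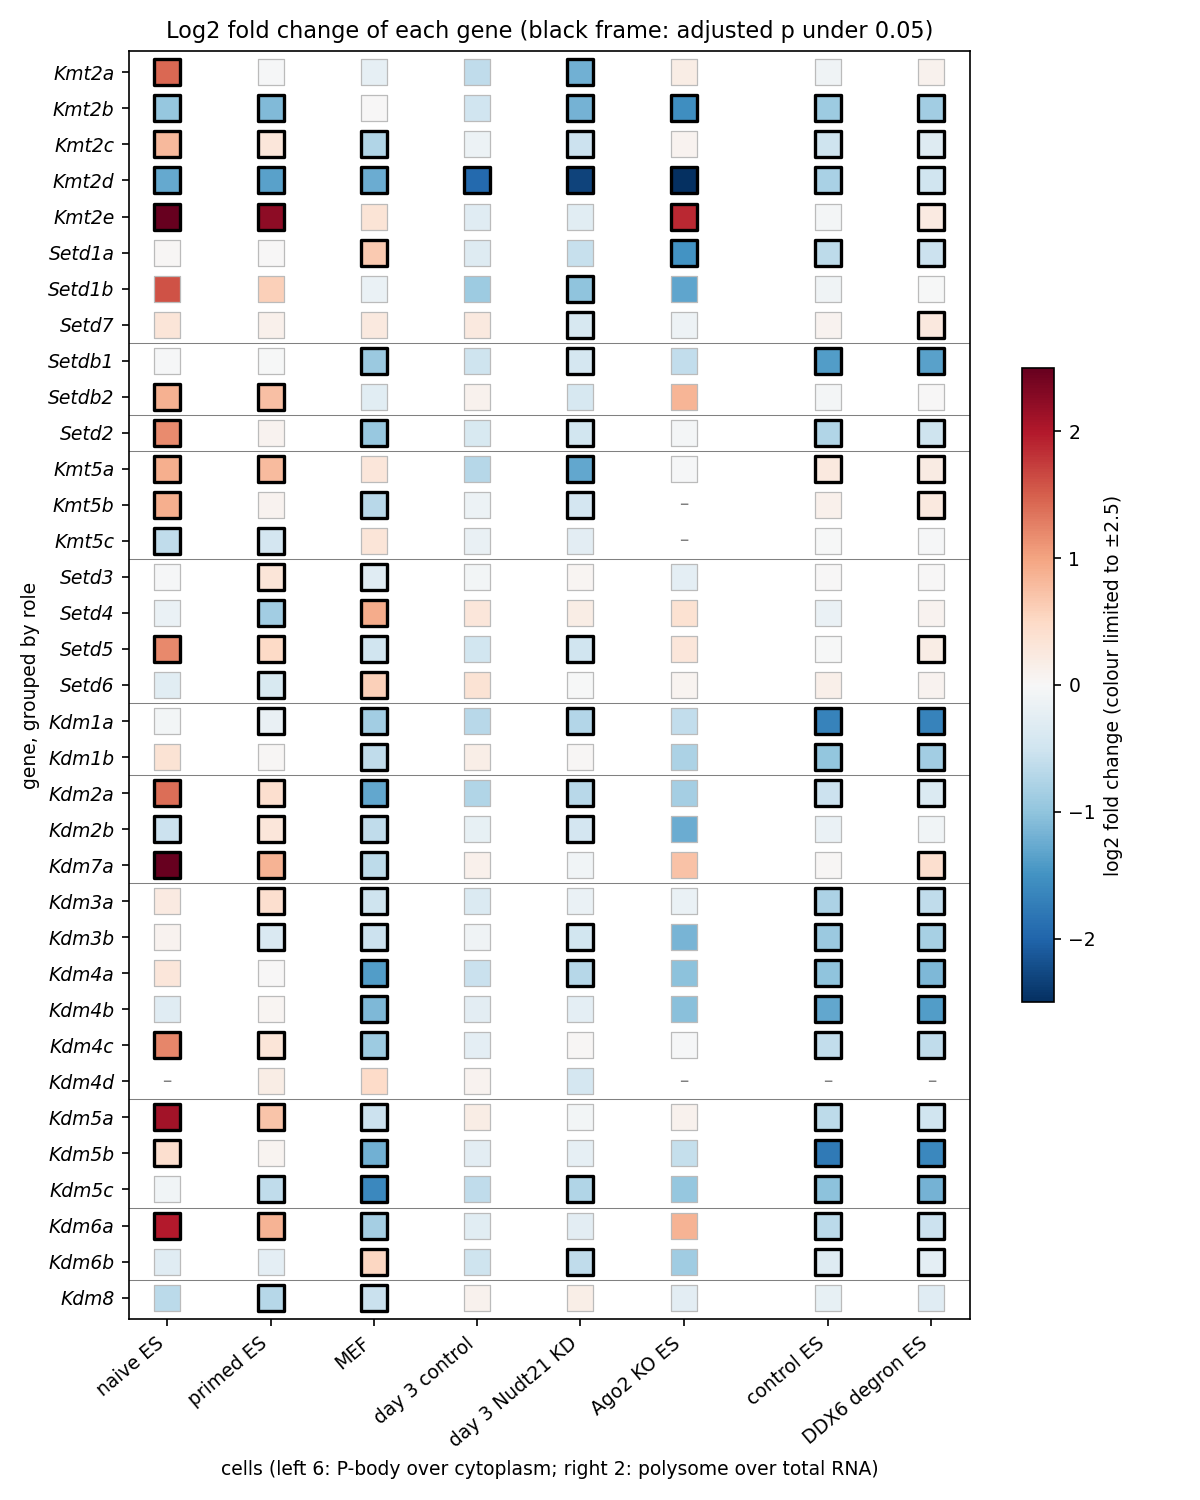
Log2 fold changes of the members (rows, by role) in the 6 P-body comparisons and the polysome comparisons (columns), with calls of edgeR's quasi-likelihood test marked. Kmt2d is lower in every column, and Kmt2e stands out in the P-body columns of ES cells. Most members are below 0 in the MEF, day 3, Nudt21 knockdown, Ago2 KO and polysome columns.

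In primed ES cells 13 of 35 members were called higher in P-bodies and 9 lower, beside 26.5% and 24.2% of all genes tested, with a median of 0.09 against 0.00. Of the 14 members higher in naive P-bodies, 10 were also called higher in primed P-bodies, which is 10 of the 13 there (Kdm2a, Kdm4c, Kdm5a, Kdm6a, Kdm7a, Kmt2c, Kmt2e, Kmt5a, Setd5 and Setdb2), and Kmt2b, Kmt2d and Kmt5c were called lower in both. Spearman's rho between the naive and primed changes was 0.81 over 34 members and 0.52 over 15020 genes. Shared calls were not counted over all genes, so these are not shown to be particular to the members. Kdm6a was at 184 and 176 CPM in P-bodies against 103.2 and 95.4 CPM (0.86 ± 0.07, adjusted p = 5.78e-07). Kdm7a was at 121 and 120.1 CPM against 65.1 and 67.8 CPM (0.86 ± 0.08, adjusted p = 1.11e-06). Kmt2b was again lower in P-bodies, at 20.2 and 19.9 CPM against 45.5 and 40.6 CPM in cytoplasm (-1.10 ± 0.11, adjusted p = 4.44e-06). Setd4, a SET-domain gene, was at 11.1 and 11.8 CPM against 22.4 and 19.7 CPM (-0.87 ± 0.15, adjusted p = 2.73e-04). P-body and cytoplasm libraries of these members did not overlap, as held for 75.2% of all genes tested.

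The difference of P-body enrichment between primed and naive cells was tested in a model with all 8 libraries. It was called above 0 for 3 members and below 0 for 10, beside 11.4% and 13.9% of all genes tested. Kdm2b, a demethylase that brings a Polycomb complex to unmethylated CpG islands, went from 48.9 and 50.5 CPM in naive P-bodies against 68.2 and 76.9 CPM in cytoplasm to 147.6 and 146 CPM against 112 and 126 CPM in primed cells (difference 0.99 ± 0.14, adjusted p = 0.00167). It was the only member called lower in naive and higher in primed P-bodies, and other genes overlap 8.74% of its exon bases. Setd3 (0.49 ± 0.13, adjusted p = 0.0212), a methyltransferase of actin, and Kdm3a (0.35 ± 0.11, adjusted p = 0.0403), an H3K9 demethylase, had smaller differences in the same direction. Enrichment was weaker in primed cells for Kmt2e (-1.81 ± 0.44, adjusted p = 0.0175), Kdm7a (-1.74 ± 0.37, adjusted p = 0.00890), Kmt2a (-1.33 ± 0.20, adjusted p = 0.00197) and Kdm5a (-1.25 ± 0.12, adjusted p = 2.91e-04). For Kdm7a it was the cytoplasmic level that differed most between the cells, with 65.1 and 67.8 CPM in primed cytoplasm against 7.46 and 16.8 CPM in naive cytoplasm. DESeq2 called 1 member above 0. The calls of Setd3, Kdm3a and Kmt2e did not hold up against leaving out libraries: Kdm3a and Kmt2e were lost without any of the P-body libraries and of the primed cytoplasm libraries (adjusted p = 0.0514 to 0.0684 for Kmt2e), and Setd3 without any of them but primed cytoplasm replicate 2.

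In MEFs most members were lower in P-bodies than in cytoplasm. Of 35 members 22 were called lower in P-bodies and 4 higher, beside 28.7% and 26.6% of all genes tested, with a median of -0.54 against 0.03. Kdm5c, the X-linked H3K4 demethylase, was at 39.7 and 27.0 CPM in P-bodies against 112 and 91.0 CPM in cytoplasm (-1.61 ± 0.18, adjusted p = 6.23e-05). Kdm4a, a demethylase of H3K9 and H3K36, was at 21.2 and 19.2 CPM against 54.0 and 52.9 CPM (-1.41 ± 0.11). Kdm2a, a demethylase of H3K36, was at 34.4 and 35.4 CPM against 86.2 and 85.7 CPM (-1.30 ± 0.10, adjusted p = 7.79e-06). Cytoplasm libraries of all 3 were more than 2 times the P-body libraries. By role, all 3 Kdm5 genes, both LSD genes (Kdm1a and Kdm1b), all 3 Kdm2 and Kdm7 genes and 5 of 6 Kdm3 and Kdm4 genes were called lower. Of the 8 genes of the H3K4 group only 2 were (Kmt2c and Kmt2d). The members called higher were Setd1a at 9.20 and 7.98 CPM against 5.57 and 5.32 CPM (0.66 ± 0.18, adjusted p = 0.0133), Setd6 at 25.6 and 24.6 CPM against 16.5 and 16.7 CPM (0.60 ± 0.12, adjusted p = 0.00220), Kdm6b at 10.9 and 14.5 CPM against 8.07 and 9.38 CPM (0.54 ± 0.19, adjusted p = 0.0355) and Setd4 at 8.10 and 4.99 CPM against 2.85 and 4.02 CPM (0.93 ± 0.29, adjusted p = 0.0217). Their groups did not overlap, as held for 78.2% of all genes tested, and the gaps were small. Without MEF cytoplasm replicate 1 there were 15 members called lower and 1 higher, beside 18.5% and 16.8% of all genes, and Setd6 was the one higher. Setd1a was lost without either cytoplasm library (adjusted p = 0.0935 and 0.112), and Kdm6b without either cytoplasm library or without P-body replicate 2 (adjusted p = 0.112 to 0.254). The call of Setd4 was lost without either cytoplasm library or without P-body replicate 1 (adjusted p = 0.0575 to 0.197), where its change was 0.54. Other genes overlap 52.3% of the exon bases of Setd1a and 4.11% of those of Kdm6b, which makes their counts uncertain. RNA known to be kept in nuclei (Malat1, Neat1, Kcnq1ot1 and Meg3, all with reads) summed to 4733 to 6739 CPM in MEF P-bodies and 989 to 1062 CPM in MEF cytoplasm, against 553 to 581 CPM and 188 to 247 CPM in naive cells and 601 to 658 CPM and 836 to 1042 CPM in primed cells, and its part in the differences between cell types was not tested.

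**Figure D3:**
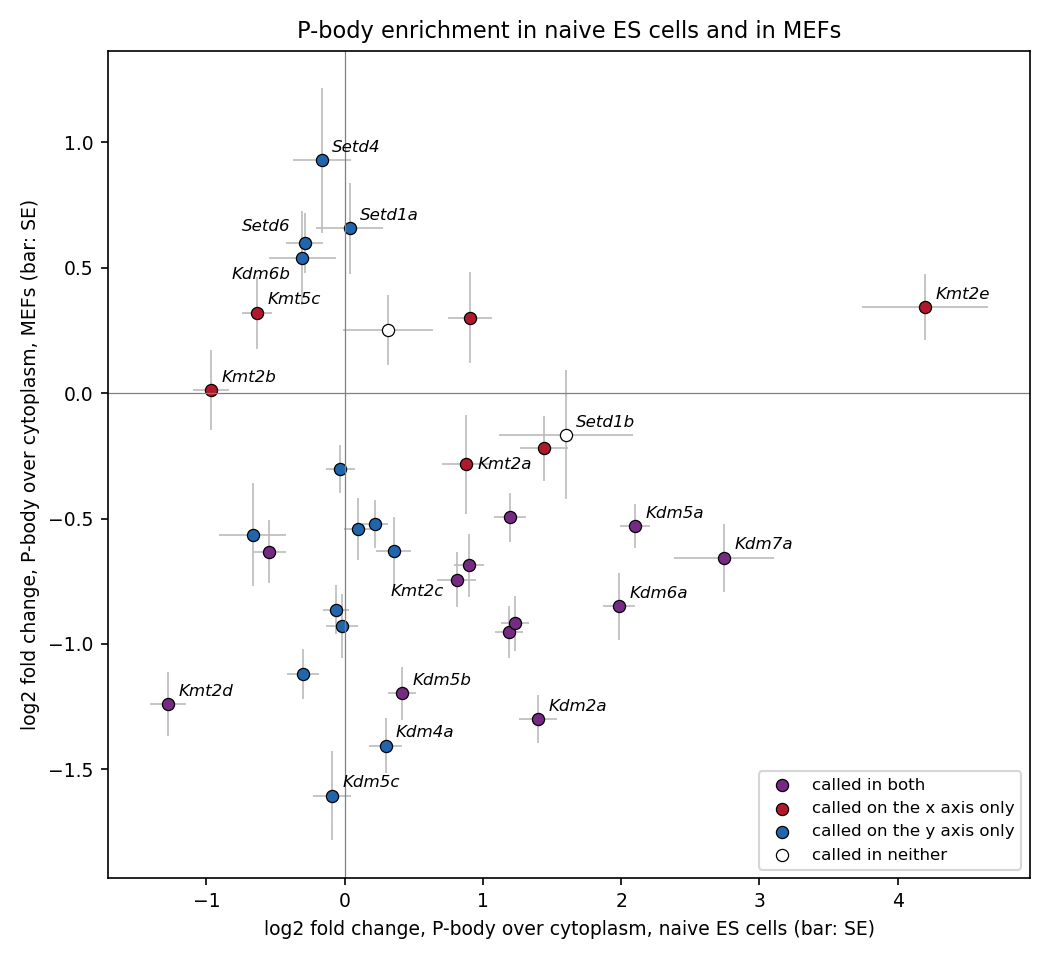
Log2 fold change of P-bodies over cytoplasm in naive ES cells (x axis) and in MEFs (y axis), one point a member with SE bars, coloured by where edgeR's test called it. The 10 members called on both axes in the lower right were higher in naive P-bodies and lower in MEF P-bodies, and Kmt2d and Kdm2b are at the lower left.

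Enrichment in MEFs minus that in naive cells was below 0 for 21 members and above 0 for 5, beside 21.5% and 19.8% of all genes tested. Of the 14 members higher in naive P-bodies, 10 were called lower in MEF P-bodies (Kdm2a, Kdm4c, Kdm5a, Kdm5b, Kdm6a, Kdm7a, Kmt2c, Kmt5b, Setd2 and Setd5), 10 of the 22 there, and 0 were called higher in both. Spearman's rho between the naive and MEF changes was -0.06 over the 34 members with both values and 0.0009 over 13982 genes. How many of all genes had such a pair of calls was not counted. The largest differences were those of Kmt2e (-3.66 ± 0.48, adjusted p = 2.18e-04), Kdm7a (-3.20 ± 0.40, adjusted p = 1.75e-04), Kdm6a (-2.65 ± 0.18, adjusted p = 9.80e-06) and Kdm2a (-2.50 ± 0.17, adjusted p = 9.65e-06). In MEFs Kdm6a was at 18.6 and 15.2 CPM in P-bodies against 29.7 and 31.3 CPM in cytoplasm, the reverse of its order in naive cells. Kdm7a was at 20.6 and 25.6 CPM against 38.6 and 34.2 CPM, again the reverse. In the other direction stood Setd4 (1.28 ± 0.40, adjusted p = 0.0281), Kmt2b (1.17 ± 0.21, adjusted p = 0.00167), Kmt5c (1.14 ± 0.17, adjusted p = 4.23e-04) and Setd6 (1.08 ± 0.18, adjusted p = 8.33e-04). Kmt2b, which was called lower in P-bodies of ES cells, was at 12.9 and 10.8 CPM in MEF P-bodies against 11.3 and 12.2 CPM in MEF cytoplasm, where the groups overlapped. Without MEF P-body replicate 1 the difference of Kmt2b was 0.77. The call of Setd4 was lost without either naive P-body library, MEF P-body replicate 1 or either MEF cytoplasm library (adjusted p = 0.0591 to 0.239), and its difference was 0.63 without MEF P-body replicate 1 and 0.82 without MEF cytoplasm replicate 1. Summed over the members, naive P-bodies held 5580 and 5572 CPM against 3170 and 3277 CPM in cytoplasm, of which Kmt2e made up 21.6% and 22.0% in P-bodies, and MEF P-bodies held 1261 and 1330 CPM against 1953 and 1939 CPM in cytoplasm.

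At day 3 of reprogramming few members passed the test. In the control only Kmt2d of 35 members was called, as lower, and 0 were called higher, beside 0.45% lower and 0.196% higher over all genes tested. The median change of the members was -0.27, against -0.01 over all genes. At an unadjusted p under 0.05 there were 11 members, beside 24.7% of all genes. The count of calls rested on single libraries, for all genes as for the members. It was 18 lower and 2 higher without day 3 control P-body replicate 1, where 30.4% and 26.6% of all genes were called. Without P-body replicate 2 it was 14 lower and 2 higher, beside 16.9% and 14.9%. DESeq2 called 8, all lower, beside 7.39% of all genes. Kdm6a shows the spread, with 69.7 and 36.01 CPM in P-bodies against 63.3 and 65.2 CPM in cytoplasm. Against MEFs, enrichment at day 3 was called above 0 for 8 members and below 0 for 1, beside 9.59% and 5.13% of all genes tested. All 3 Kdm5 genes were among the 8. Kdm5b, an H3K4 demethylase, went from 97.6 and 81.2 CPM in MEF P-bodies against 207 and 203 CPM in cytoplasm to 115 and 107 CPM against 134 and 132 CPM at day 3 (difference 0.98 ± 0.16, adjusted p = 0.00503). Kdm5c (1.02 ± 0.25, adjusted p = 0.0214), Kdm4b (0.89 ± 0.16, adjusted p = 0.00700) and Kdm4a (0.89 ± 0.17, adjusted p = 0.00785) differed the same way. Kmt5a, the enzyme that sets the first methyl group on H4K20, had the only difference called below 0 (-0.98 ± 0.27, adjusted p = 0.0370), with 33.97 and 52.1 CPM in MEF P-bodies against 32.8 and 37.1 CPM in cytoplasm and 39.4 and 47.6 CPM against 67.5 and 75.4 CPM at day 3. The overlap of its groups in MEFs gave way to separate groups. These calls changed with single libraries: without day 3 control cytoplasm replicate 1 or 2 there were 0, without MEF cytoplasm replicate 1 there was 1, and without MEF cytoplasm replicate 2 there were 5, all above 0. Without MEF P-body replicate 2 the calls of Kdm5c and Kmt5a were lost (adjusted p = 0.0635 and 0.116), and without day 3 control P-body replicate 2 there were 14 calls above 0 and 6 below, beside 18.1% and 14.0% of all genes. The nuclear RNA listed above also differed here, with 1521 to 1905 CPM in day 3 control P-bodies and 1431 to 1437 CPM in cytoplasm, and its part was not tested.

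With the Nudt21 knockdown 18 of 35 members were called lower in P-bodies and 0 higher by edgeR and by DESeq2 (22 at an unadjusted p under 0.05), beside 12.8% and 9.04% of all genes tested, with a median of -0.43 against 0.00. Of the 8 genes of the H3K4 group 6 were called lower (Kmt2a, Kmt2b, Kmt2c, Kmt2d, Setd1b and Setd7). After Kmt2d the largest changes were those of Kmt5a, at 27.6 and 39.6 CPM in P-bodies against 89.9 and 75.1 CPM in cytoplasm (-1.30 ± 0.16, adjusted p = 7.18e-04), and Kmt2a, at 33.0 and 38.7 CPM against 79.8 and 85.0 CPM (-1.20 ± 0.11, adjusted p = 2.06e-04). Every cytoplasm library was above every P-body library for both, as held for 31.2% of all genes tested. Without knockdown cytoplasm replicate 1 there were 9 calls and without replicate 2 there were 8, beside 7.27% and 6.48% of all genes. The nuclear RNA listed above was lower in these P-bodies too, at 658.7 to 659.5 CPM against 1082 to 1090 CPM in cytoplasm, with all 4 genes called lower. Its part in the counts of members was not tested. The difference of enrichment between knockdown and day 3 control was called for 0 members by edgeR, beside 0% above and 0.0118% below 0 over all genes tested, and 1 member had an unadjusted p under 0.05. DESeq2 also called 0. The difference was -0.55 ± 0.26 for Kmt5a and -0.54 ± 0.19 for Kmt2a (adjusted p = 0.894 for both). Without day 3 control P-body replicate 1, 3 members were called above 0 and 3 below, beside 8.53% and 4.5% of all genes. Of the nuclear RNAs Kcnq1ot1 was called for this difference, below 0, and the median of the 4 was -1.09. The longer list of calls under the knockdown was thus not shown to differ from the control.

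In the Ago2 KO ES cells 1 of 32 members, Kmt2e, was called higher in P-bodies and 3 were called lower, beside 5.47% and 1.05% of all genes tested. Besides Kmt2d these were Kmt2b, at 10.3 and 14.7 CPM in P-bodies against 24.5 and 49.4 CPM in cytoplasm (-1.56 ± 0.36, adjusted p = 0.0370), and Setd1a, at 6.98 and 9.53 CPM against 17.1 and 29.5 CPM (-1.49 ± 0.33, adjusted p = 0.0311). The groups did not overlap, as held for 56% of all genes tested, and cytoplasm replicate 2 was higher than replicate 1 for both. Over the 32 members the median change was -0.25, against 0.04 over all genes. Kdm7a was at 77.9 and 97.6 CPM in P-bodies against 38.5 and 67.6 CPM (0.73 ± 0.31, adjusted p = 0.189) and Kdm6a at 42.4 and 45.9 CPM against 15.6 and 32.6 CPM (0.87 ± 0.34, adjusted p = 0.153), which missed the test's threshold. The count was 18 lower and 2 higher without Ago2 KO cytoplasm replicate 1, where 17.7% and 16.8% of all genes were called. It was 4 lower and 6 higher without cytoplasm replicate 2 (3.16% and 10% of all genes) and 1 and 1 without P-body replicate 1, where Kmt2b and Setd1a were lost (adjusted p = 0.259 and 0.276). Without cytoplasm replicate 2 the change of Kmt2b was -0.997. As these libraries were counted in another way than those of the naive cells, the difference between them was not tested.

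Over the 6 P-body comparisons 19 members were called higher in at least 1 and lower in at least 1 other. A further 13 were called lower only, 2 higher only (Kmt2e and Setdb2, an H3K9 methyltransferase), and Kdm4d was not called. These patterns were not counted over all genes. In naive cells, primed cells and MEFs 38.0%, 50.7% and 55.3% of all genes tested were called in either direction, so mixed calls cannot be read as a trait of the members.

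Polysome-bound RNA was set against total RNA in control and DDX6 degron ES cells. In control cells 19 of 34 members were called lower in polysomes and 1 higher, beside 24.1% and 18.8% of all genes tested, with a median of -0.52 against 0.02. In degron cells 19 were called lower and 6 higher, beside 26.8% and 24%, with a median of -0.34 against 0.02. The 19 were the same genes in both. Spearman's rho between the changes in control and degron cells was 0.96 over the 34 members and 0.74 over 15228 genes. Shared calls were not counted over all genes, so this is not shown to be particular to the members. Kdm5b was at 114, 105 and 107 CPM in control polysomes and at 383, 387 and 346 CPM in total RNA (-1.78 ± 0.07, adjusted p = 3.73e-12). Kdm1a, the flavin demethylase LSD1, was at 103, 96.2 and 101 CPM against 313, 332 and 310.1 CPM (-1.67 ± 0.06, adjusted p = 3.48e-12). Setdb1, which silences retroviral elements through H3K9 methylation, was at 72.3, 69.6 and 73.8 CPM against 194, 197 and 172 CPM (-1.39 ± 0.07, adjusted p = 7.38e-11). Total RNA held more than 2 times the polysome level in every library of these 3. Kdm1a and Kdm5b were also the first and the third of the members per kilobase in total RNA (105 and 42.7 CPM per kb). All 3 Kdm5 genes, both LSD genes, both Kdm6 genes and all 5 Kdm3 and Kdm4 genes tested were called lower. Kmt5a was the member called higher in polysomes of control cells, at 160.4, 162 and 170 CPM against 139.9, 138 and 141 CPM (0.23 ± 0.06, adjusted p = 0.00408), and it was also called in degron cells (0.20 ± 0.05, adjusted p = 0.00170).

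**Figure D4:**
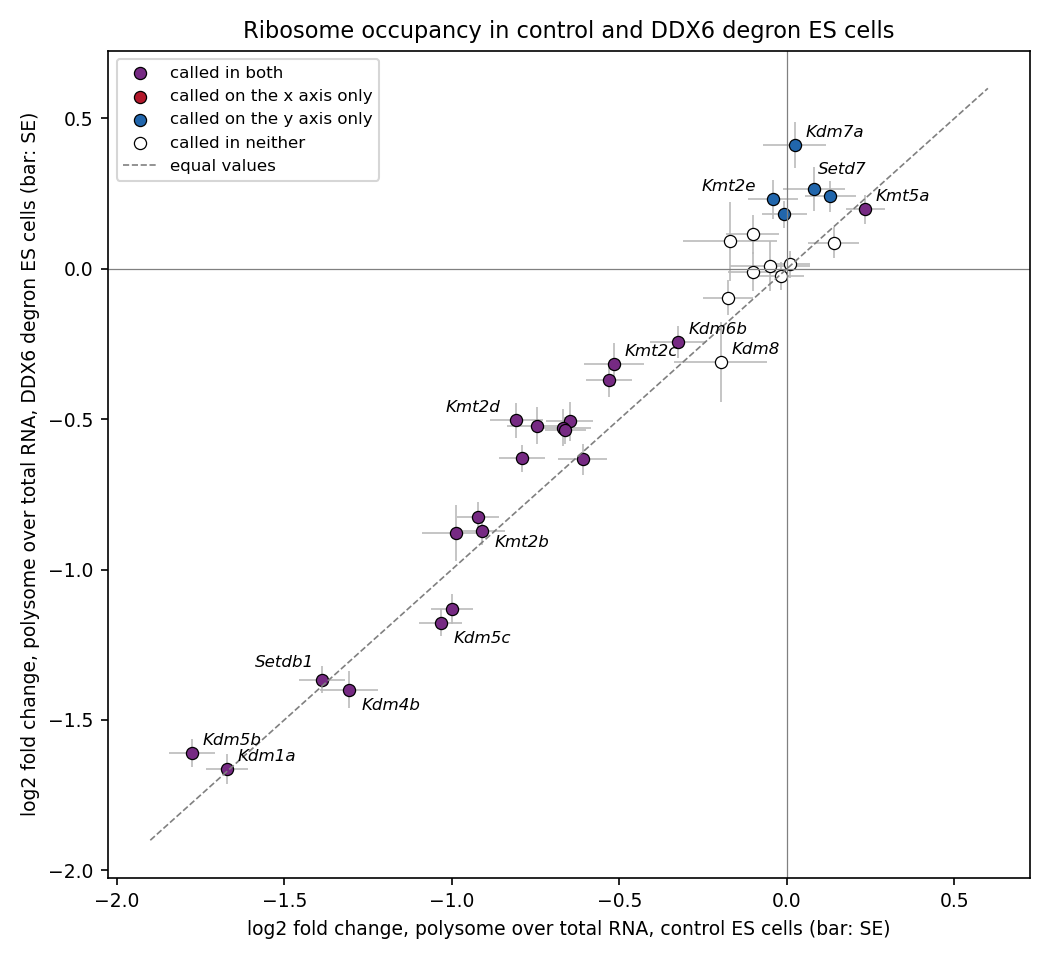
Log2 fold change of polysome-bound over total RNA in control ES cells (x axis) and in DDX6 degron ES cells (y axis), one point a member with SE bars. Points lie near the line of equal values, with Kdm5b and Kdm1a at the lower left. Kmt5a is farthest to the right, and Kdm7a is the highest and farthest above the line. In the test of the difference itself 27 of 35 members were above 0 and 0 were called.

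In degron cells the largest changes were again those of Kdm1a, at 112, 98.1 and 97.6 CPM in polysomes against 331, 322 and 323 CPM in total RNA (-1.66 ± 0.05), and Kdm5b, at 100.04, 110.3 and 113 CPM against 330.1, 323 and 332 CPM (-1.61 ± 0.05). Kdm4b, a demethylase of H3K9 and H3K36, was at 15.1, 15.1 and 15.9 CPM against 39.0, 40.6 and 41.3 CPM (-1.40 ± 0.06). The groups of these members did not overlap, as held for 57.2% of all genes tested. The members called higher in degron polysomes alone were Kdm7a, Setd7, Kmt5b, Kmt2e and Setd5, all by less than 0.5 on the log2 scale. Kdm7a was at 16.6, 17.1 and 17.9 CPM in polysomes against 13.2, 12.5 and 13.1 CPM (0.41 ± 0.08, adjusted p = 7.65e-05), while in control cells it was at 15.5, 14.9 and 15.2 CPM against 15.6, 14.8 and 14.4 CPM. Setd7, an H3K4 methyltransferase of a different family, was at 22.1, 22.5 and 25.99 CPM against 19.2, 18.5 and 20.5 CPM (0.27 ± 0.07), and Kmt5b at 74.0, 74.8 and 76.8 CPM against 63.7, 59.9 and 67.1 CPM (0.24 ± 0.05). Kmt2e, at 55.8, 58.2 and 61.4 CPM in polysomes against 47.1, 46.6 and 55.0 CPM, was the member most enriched in naive P-bodies. Kmt2d was lower in polysomes of control cells, at 70.1, 64.9 and 54.9 CPM against 115, 111 and 107 CPM (-0.81 ± 0.08, adjusted p = 3.56e-07), and of degron cells, at 55.5, 64.8 and 63.2 CPM against 81.2, 87.0 and 91.5 CPM (-0.50 ± 0.06, adjusted p = 1.78e-07). The test of the difference itself, ribosome occupancy in degron minus control cells, called 0 members in either direction by edgeR, beside 0% of all genes tested. DESeq2 also called 0. The difference was above 0 for 27 of 35 members, with a median of 0.11 against -0.01 over all genes. The share of all genes above 0 was not counted. At an unadjusted p under 0.05 there were 4 members, Kdm7a (0.39 ± 0.11), Kmt2d (0.30 ± 0.11), Kmt2e (0.27 ± 0.11) and Setd5 (0.19 ± 0.08), all with an adjusted p of 0.879 and named after their values were seen.

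The members differ in GC content, which the choice by symbol did not use. Coding GC ran from 42.9% to 61.8%. In naive cells the 15 members with coding GC under 50% had a median change of 1.19, with 12 called higher and 0 lower, and the 19 at or over 50% had a median of -0.09, with 2 called higher and 4 lower. In primed cells the low-GC members were called higher 11 times and lower 0 times (median 0.41) and the high-GC members 2 and 9 times (median -0.11). In MEFs the low-GC members were the ones most often called lower in P-bodies, with 0 called higher and 13 lower (median -0.69), against 4 and 9 of the 20 high-GC members (median -0.19). Over all genes tested 22.6% were called higher and 15.4% lower in naive cells, 26.5% and 24.2% in primed cells, and 26.6% and 28.7% in MEFs. All genes of the same GC range were not counted, so these counts are not shown to be particular to the members. Over members, Spearman's rho of the change with GC content of the longest transcript was -0.70 in naive cells (n = 34), -0.70 in primed cells (n = 35), -0.72 in the Ago2 KO (n = 32), 0.23 in MEFs, -0.32 in the day 3 control and -0.42 with the Nudt21 knockdown (n = 35 each). Over all genes it was -0.60, -0.38, -0.48, -0.08, -0.24 and -0.29 in the same order. With coding GC it was -0.67, -0.62, -0.68, 0.30, -0.23 and -0.35 over the members. With the length of the longest transcript it was 0.40, 0.16, -0.09, -0.26, -0.33 and -0.42 over the members. Over all genes rho with length was 0.21, -0.01, -0.21, -0.45, -0.32 and -0.34, so in MEFs it was further from 0 than rho with GC content. These are descriptions across genes, which share the libraries and are not independent replicates. Kmt2d and Kmt2c, with 59.4% and 47.3% GC in their coding sequences, are such a pair: they lay on opposite sides in naive and primed cells, and both were called lower in MEF P-bodies, where Kmt2c was at 52.3 and 62.9 CPM against 97.0 and 95.9 CPM (-0.74 ± 0.11). For polysome against total RNA rho was -0.11 in control and -0.15 in degron cells with GC of the transcript, and 0.004 and -0.03 with coding GC (n = 34 each).

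**Figure D5:**
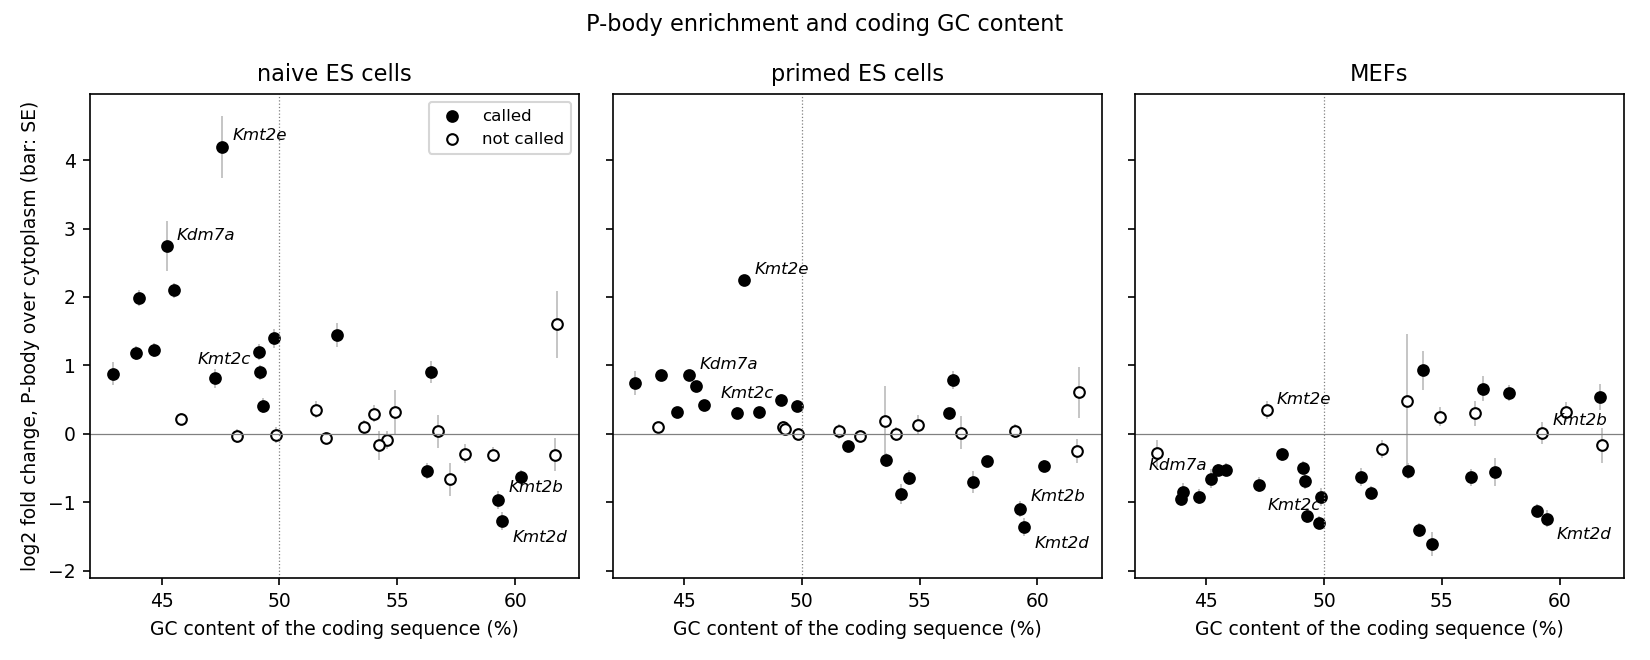
Log2 fold change of P-bodies over cytoplasm (y axis, SE bars) against GC content of the coding sequence in percent (x axis), one point a member, in naive ES cells, primed ES cells and MEFs, with filled points for calls. Points fall from upper left to lower right in the ES cells, and in MEFs the 15 members under 50% (dotted line) have 13 calls, all below 0, beside 28.7% of all genes called lower there.

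Other genes of the same pathway were counted from lists of complex subunits and related enzymes. Their counts stand beside the shares of all genes called higher and lower in the same comparisons, which were 22.6% and 15.4% in naive cells, 26.5% and 24.2% in primed cells, 26.6% and 28.7% in MEFs, 0.196% and 0.45% at day 3, 9.04% and 12.8% with the Nudt21 knockdown, 5.47% and 1.05% in the Ago2 KO, 18.8% and 24.1% in control polysomes and 24% and 26.8% in degron polysomes. Of 14 subunits of the COMPASS and MLL complexes, in which the Kmt2 and Setd1 enzymes work, 6 were called higher and 3 lower in naive P-bodies, 6 and 5 in primed P-bodies, and 2 and 9 in MEF P-bodies. At day 3 these were 0 and 1, with the Nudt21 knockdown 1 and 3, in the Ago2 KO 1 and 1, and in polysomes 1 and 8 in control and 2 and 8 in degron cells. Hcfc1, a scaffold of the SET1 and MLL complexes, was called lower in all 6 P-body and both polysome comparisons, as Kmt2d was. It was at 198 and 199 CPM in naive P-bodies against 336 and 278 CPM in cytoplasm (-0.63 ± 0.12) and at 27.7 and 35.1 CPM against 134 and 123 CPM in MEFs (-2.04 ± 0.13). Dpy30, a core subunit of these complexes, stood against them in MEFs, at 80.3 and 75.1 CPM in P-bodies against 26.1 and 29.6 CPM in cytoplasm (1.48 ± 0.11).

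Of 18 other lysine methyltransferases 10 were called higher and 1 lower in naive P-bodies, 9 and 5 in primed P-bodies, and 0 and 10 in MEF P-bodies, with the same shares of all genes beside them (22.6% and 15.4%, 26.5% and 24.2%, 26.6% and 28.7%). These counts were 0 and 0 at day 3, 0 and 9 with the Nudt21 knockdown, 3 and 0 of the 16 tested in the Ago2 KO, and 2 and 10 in control and 3 and 10 in degron polysomes. Ash1l, an H3K36 methyltransferase, was at 268 and 249 CPM in naive P-bodies against 10.6 and 27.1 CPM in cytoplasm (3.78 ± 0.43) and at 98.6 and 129 CPM against 135 and 136 CPM in MEFs (-0.25 ± 0.13, not called). The H3K9 methyltransferases Ehmt1 and Ehmt2, which act as a dimer, lay on opposite sides in naive cells: Ehmt1 was at 254 and 254 CPM in P-bodies against 110.5 and 104 CPM (1.25 ± 0.10), and Ehmt2 at 49.1 and 45.0 CPM against 108 and 103 CPM (-1.16 ± 0.11). Both were called lower in MEF P-bodies (-1.06 ± 0.09 for Ehmt1 and -0.57 ± 0.10 for Ehmt2). Of 9 other JmjC proteins 2 were called higher and 0 lower in naive P-bodies, 2 and 3 in primed P-bodies, and 2 and 3 in MEF P-bodies, which is near the share of all genes for those called higher in naive and primed cells. They were 0 and 0 at day 3, 0 and 3 with the knockdown, 0 and 0 of the 6 tested in the Ago2 KO, and 0 and 5 in control and 0 and 7 in degron polysomes.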

How the data were processed

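RNA sequencing of P-body, cytoplasm, polysome and total RNA from 36 mouse samples was used. The authors made Smart-seq libraries of the fractions, aligned reads with HISAT2 to mm10 and counted refGene exons with featureCounts. For polysome, total and Ago2 KO RNA they used salmon, with Ensembl gene models for the Ago2 KO. All 3 tables hold estimated counts per gene as deposited by the authors, made by this alignment and counting, of which 5.05% to 25.7% per library were not whole, and they were rounded. Whether strand was used, and how fractions arose where featureCounts was run, is not given in the sources used here. Tables of the authors' own comparisons (DESeq2 fold changes and p-values) were not used.

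Groups came from the sample titles. Each comparison was fitted on its own libraries with edgeR 4.0.16 (R 4.3.3) by the quasi-likelihood test with TMM scaling, on genes with at least 10 reads over the libraries of the fit, with Benjamini-Hochberg adjustment over all genes. Differences between cell types are interaction terms. CPM use the TMM-scaled library sizes, so depth sets the precision of low genes. The SE is the fold change divided by the square root of F. DESeq2 1.42.0, its size factors, other low-count filters, all groups in 1 fit, a replicate block and leaving out each library were the alternatives. The scripts were tested on simulated counts. The study states separate cultures for the polysome samples and calls its naive and primed P-body samples independent, without saying what was separate. For the other fractions there is only a general statement that the sequencing assays had biological replicates, again without saying what was separate. The p-values there measure the spread between libraries, which may be technical. Levels in every library are given for Kmt2d and for up to 3 members a direction (4 for interactions) with the largest change among those called, for fractions with a mean of at least 5 CPM. Members beyond this rule and genes of the lists were named after their values were seen. The members and lists were chosen with earlier results of these data known.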

Additional observations from a re-analysis of the deposited data

Results flagged for a closer look

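P-body enrichment of the members differed between cell types by a test of the difference itself, the interaction term of edgeR's quasi-likelihood test. For primed minus naive ES cells it was called for 13 members, beside 25.3% of all genes tested: the log2 difference was 0.99 for Kdm2b, 0.49 for Setd3 and 0.35 for Kdm3a, and -1.81 for Kmt2e, -1.74 for Kdm7a, -1.33 for Kmt2a and -1.25 for Kdm5a at the other end. For MEFs minus naive ES cells it was called for 26 members, beside 41.3% of all genes, with 1.28 for Setd4, 1.17 for Kmt2b, 1.14 for Kmt5c and 1.08 for Setd6 against -3.66 for Kmt2e, -3.20 for Kdm7a, -2.65 for Kdm6a and -2.50 for Kdm2a. For the day 3 control minus MEFs it was called for 9 members, beside 14.7% of all genes, and for 0 without either day 3 control cytoplasm library, with 1.02 for Kdm5c, 0.98 for Kdm5b, 0.89 for Kdm4b, 0.89 for Kdm4a and -0.98 for Kmt5a. The MEF libraries enter the last 2 sets and the naive libraries the first 2, so these sets are not independent of each other. As given above, some calls did not hold up against leaving out libraries. These were Setd3, Kdm3a and Kmt2e for primed minus naive and Setd4 for MEFs minus naive. The check for single outlying values was not applied, as each group has 2 or 3 libraries.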

How the results depend on the processing

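Of the counts of members called, those of primed cells (20 to 22 on leaving out each library), control polysomes (20 to 22), degron polysomes (25 to 27) and MEF minus naive (21 to 27) moved least, and occupancy in degron minus control cells stayed at 0 to 0. Leaving out libraries gave 10 to 26 members in naive cells, 16 to 28 in MEFs, 1 to 20 in the day 3 control, 8 to 22 with the Nudt21 knockdown, 2 to 20 in the Ago2 KO, 9 to 18 for primed minus naive, 0 to 20 for day 3 control minus MEF and 0 to 6 for the Nudt21 knockdown minus day 3 control. In the day 3 control, where 1 member was called, DESeq2 gave 8, filterByExpr 2, no low-count filter 7 and all groups in 1 fit 13. In the Ago2 KO, with 4, DESeq2 gave 8, its size factors in edgeR 2 and no filter 12. For day 3 control minus MEF, with 9, DESeq2 gave 15, no filter 16 and all groups in 1 fit 14. The cause was not tested. The difference of Kmt2d, not called for primed minus naive (0.05), changed sign with DESeq2 (-0.0228), its size factors (-0.0226), filterByExpr (-0.0539), no filter (-0.0646), all groups (-0.0649), and without naive P-body replicate 2 (-0.02), primed P-body replicate 1 (-0.28) or primed cytoplasm replicate 1 (-0.11), a range of -0.28 to 0.13 over the libraries left out. For MEF minus naive (0.23, not called) it changed sign with no filter (-0.0262), all groups (-0.00776), and without MEF P-body replicate 2 (-0.12) or MEF cytoplasm replicate 2 (-0.09), a range of -0.12 to 0.31. With 2 libraries a group a lone library was assumed to vary like the others. No call of a named gene changed its direction.

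The same replicate numbers stand in both fractions, but nothing says that they mark a shared culture, and with 2 libraries a fraction they were not taken as pairs. The deviations of same-numbered libraries correlated at -0.06 in naive cells, 0.09 in primed cells, -0.01 in MEFs, 0.17 in the day 3 control, 0.20 with the Nudt21 knockdown and 0.60, the highest, in the Ago2 KO. Those of control polysome and total RNA, with 3 libraries each, ran from -0.0024 to 0.20. With the replicate block 5 members were called in the day 3 control and 17 in the Ago2 KO, 4 higher and 13 lower, beside 15.3% and 9.6% of all genes there. Kdm6a (0.96, adjusted p = 2.35e-04) and Kdm7a (0.77, adjusted p = 0.00516) were among the 4. The other 11 counts of members stayed within 1.5 times, and 2 of 64 named values were no longer called, Setd3 (0.49, adjusted p = 0.0543) and Kdm3a (0.35, adjusted p = 0.0958), both for primed minus naive. Of the 16 correlations with GC content and length, 8 moved when the median over transcripts replaced the longest transcript. Which of them moved is not listed here, so the values given hold for the longest transcript only.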
